A study of Mus musculus with 51 samples.

Results

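A set of 10 genes of the skeletal lineages was followed through mouse stromal cell lines: the transcription factors Runx2, Sp7, Dlx5, Msx1, Msx2 and Sox9, the enzyme Alpl and the matrix genes Ibsp, Spp1 and Acan. A gene was measured here where a probe set of the array named it and no other gene, and where several did, the brightest of them on average was taken. By this rule 8 of the 10 genes were measured, each by 1 probe set, among 19938 genes in all. Runx2 and Spp1 were not analysed here.

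The study compared stromal lines that support blood stem and progenitor cells in culture with lines that support them less or not at all. RNA of 51 samples in 17 groups of 3 was labelled with biotin from 100 ng and read on arrays, 1 colour per array. Confluent cultures of 13 lines were sampled, and sorted cells of 2 of them. The lines UG26.1B6 (supportive) and UG26.3B5 (less supportive) came from the aorta-gonad-mesonephros (AGM) region of (CBAxC57BL/10)F1 embryos at embryonic day 11, as did AM14-1C4 and AM30-3F4 (both supportive). The fetal liver (FL) of C57BL/6 embryos at embryonic day 14.5 gave the supportive lines AFT024 and 2012 and the non-supportive lines AFT011, BFC012 and BFC. The labels give BFC no clone number, so it is not known whether it is BFC012, and it is counted here as a line of its own. Of the adult bone marrow (BM) lines, BMC9 (supportive) and BMC10 (less supportive) are of the strain H2ts6, and 14F1-1 (supportive) is BALB/c. OP9 (supportive) came from fetal calvaria of (C57BL/6xC3H)F2-op/op mice. A line is 1 clone or 1 established line, so a difference between lines of a pair is a difference between those clones. Confluent cultures were kept on gelatin at 33 °C, except 14F1-1 and OP9 arrays 1 and 2, which are labelled 37 °C (the third OP9 array is labelled 33 °C). AFT024 and BFC012 were further cultured for 4 days with or without bone marrow KLS cells (c-Kit+ Sca1+ Lin-, a fraction that holds the blood stem cells), after which the CD45-negative stromal cells were sorted. Of the genes listed as fibroblastic stroma markers, 7 to 9 of 10 lay above the median gene in every group. By the same measure 0 of 8 endothelial markers and 1 or 2 of 16 blood cell markers did.

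Osteoblasts and chondrocytes arise from common mesenchymal progenitors. Runx2 opens the osteoblast path and Sp7 (osterix) acts downstream of it, while Dlx5, Msx1 and Msx2 are homeobox factors that pattern the skeleton and act on osteoblast genes. Alpl, the tissue-nonspecific alkaline phosphatase, removes the pyrophosphate that blocks mineral growth and is an early osteoblast marker. Ibsp (bone sialoprotein) and Spp1 (osteopontin) belong to the mineralized matrix. Sox9 drives chondrocyte formation and is also expressed in skeletal progenitors, and Acan codes for aggrecan, the main proteoglycan of cartilage. Stromal cells that support blood formation in the marrow share ancestry with these lineages.

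RefSeq promoters (assembly GRCm38.p6) were found for 5 of the 8 measured genes. Those of Alpl, whose level ranged widely, of Msx2, which separated the lines by an order of its own, and of Ibsp, which stayed low in every group, are given as the 250 bases before the start site, on the gene's strand. Alpl has 2 start sites in the table. Capitals mark matches to 6 short words searched on both strands. The RUNX word was TGTGGT. The GC box word was GGGCGG. The homeobox word, the same on both strands, was TAATTA. The SOX word was ACAATG. The TATA word was TATAAA. The last word was the CCAAT box. A word on the opposite strand is in capitals as it reads on the printed strand and is called reverse.
Alpl, chr4:137796385-137796634, minus strand: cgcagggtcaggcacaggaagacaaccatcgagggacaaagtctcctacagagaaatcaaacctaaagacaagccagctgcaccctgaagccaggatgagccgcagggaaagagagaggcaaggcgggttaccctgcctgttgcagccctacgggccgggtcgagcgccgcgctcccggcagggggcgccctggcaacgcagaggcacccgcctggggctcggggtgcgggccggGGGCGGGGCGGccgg
Alpl, chr4:137766476-137766725, minus strand: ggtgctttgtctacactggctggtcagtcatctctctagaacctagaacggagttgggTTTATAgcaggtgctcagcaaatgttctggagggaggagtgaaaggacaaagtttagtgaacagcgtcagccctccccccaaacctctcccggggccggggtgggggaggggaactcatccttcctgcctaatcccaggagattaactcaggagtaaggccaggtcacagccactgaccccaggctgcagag
Msx2, chr13:53472781-53473030, minus strand: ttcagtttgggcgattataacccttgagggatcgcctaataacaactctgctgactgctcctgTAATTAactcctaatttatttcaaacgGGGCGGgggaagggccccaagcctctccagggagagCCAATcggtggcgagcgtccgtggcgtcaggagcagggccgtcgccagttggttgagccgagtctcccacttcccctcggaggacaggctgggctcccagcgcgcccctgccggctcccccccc
Ibsp, chr5:104299037-104299286, plus strand: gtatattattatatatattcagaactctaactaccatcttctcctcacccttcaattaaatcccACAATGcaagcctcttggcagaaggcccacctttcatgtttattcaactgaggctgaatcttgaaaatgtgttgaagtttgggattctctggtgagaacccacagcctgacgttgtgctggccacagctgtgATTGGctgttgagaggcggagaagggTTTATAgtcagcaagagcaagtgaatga
The first Alpl promoter held 2 GC box words that overlap by 1 base, 15 and 10 bases before the start, and the second held a reverse TATA word 192 bases before it. The Msx2 promoter held the homeobox word at 187, the GC box at 160 and CCAAT at 124 bases before its start. The Ibsp promoter held the SOX word at 186, reverse CCAAT at 54 and reverse TATA at 28 bases before its start. None of the 4 windows held the RUNX word. Among 32851 promoters of this length, 14.0% held the RUNX word, 32.7% the GC box, 4.84% the homeobox word, 10.7% the SOX word, 12.4% the TATA word and 33.8% CCAAT. A match is a match of letters and was not tested as a binding site.

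Levels are log2 signals as deposited. By their quantiles they fall into 4 separately normalized sets, and values were compared only within a set. The first confluent set holds both UG26 lines, AFT024, BFC012, BMC9 and BMC10 (median gene at 7.3), the second confluent set 14F1-1, 2012, AFT011 and both AM lines (7.43), the OP9 set OP9 and BFC (5.27) and the sorted set the 4 sorted groups (5.88). The levels of different genes are not set against each other, since probe sets differ in brightness. Differences were tested with limma, 1 fit to the 39 confluent and 1 to the 12 sorted arrays, and adjusted by Benjamini-Hochberg over all genes. All groups of a fit shared 1 estimate of the spread per gene, so an SE is not the spread of the compared lines alone. A gene is called higher or lower where its adjusted p was under 0.05. A log2 difference of 1 is a factor of 2.

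**Figure D1:**
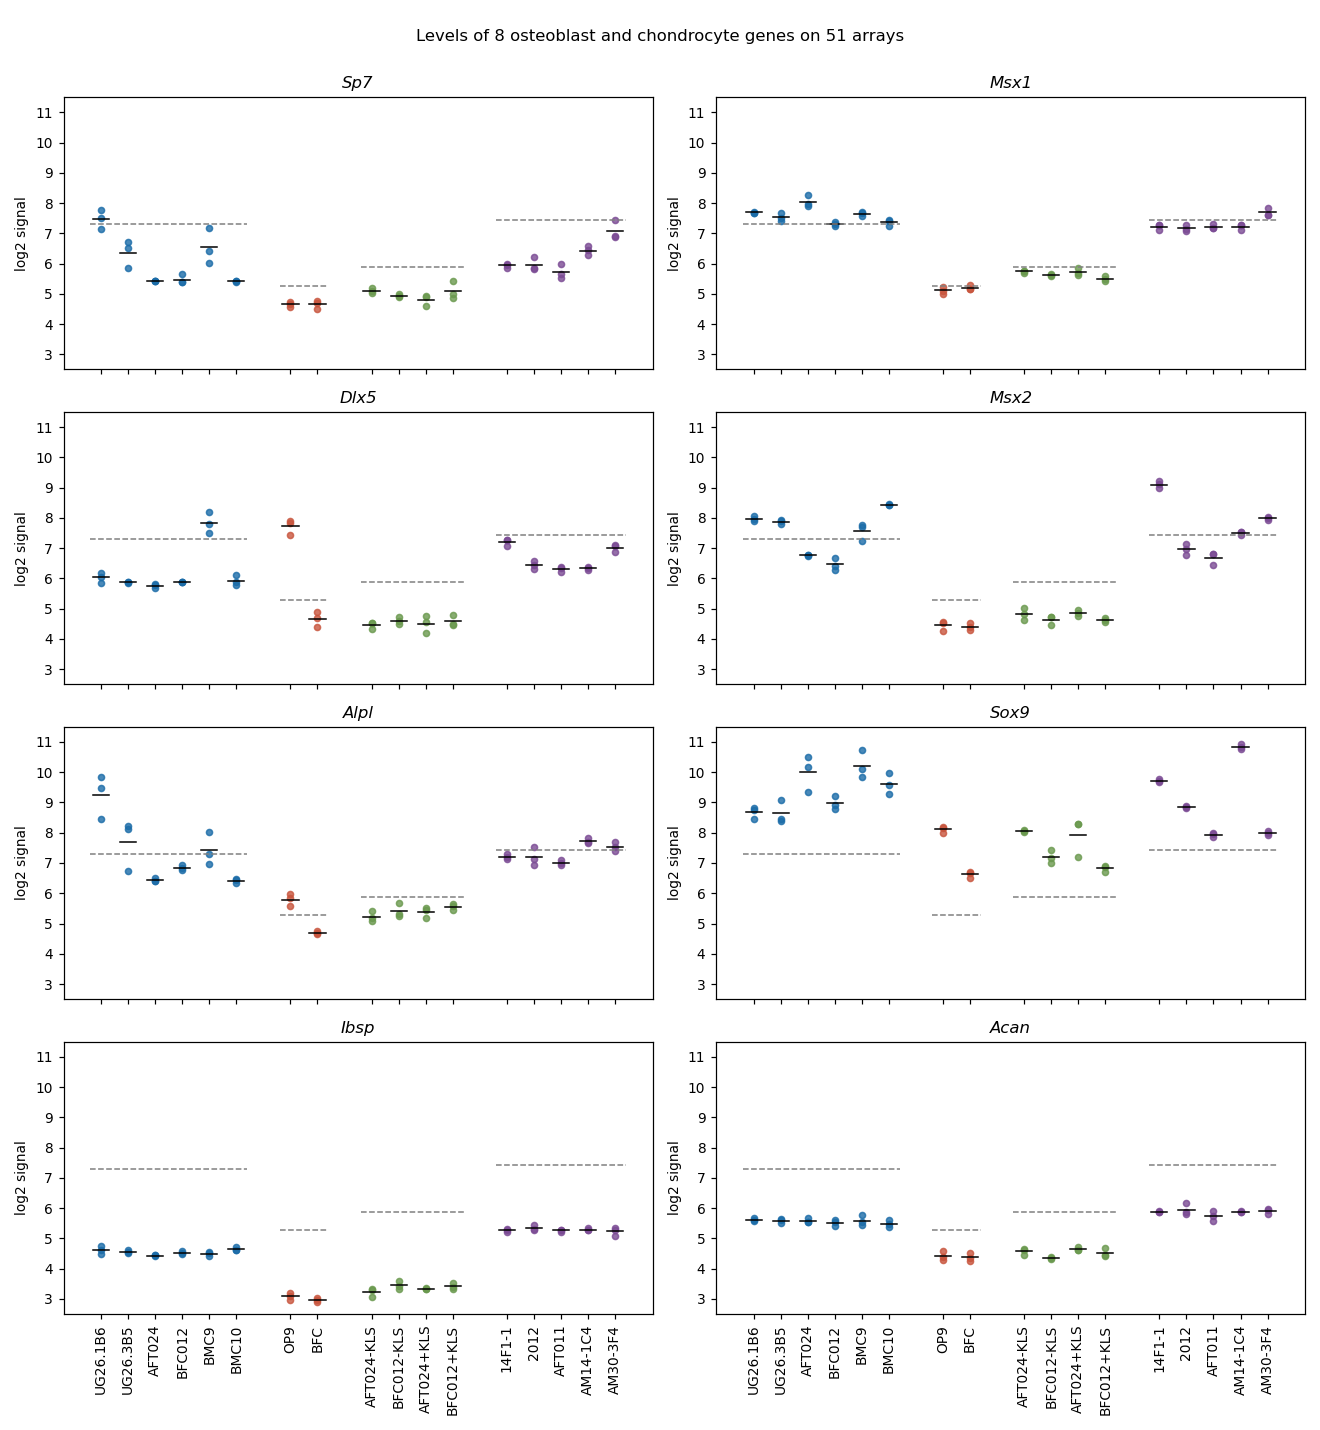
Log2 signal of the 8 measured genes (1 panel each, all with the same y axis range) in the 17 groups. Points are arrays, coloured by normalization set, black lines are group means and dashed grey lines the median over all genes of the set. Sox9 lies above the dashed line in all 17 groups, Ibsp and Acan below it in all 17, and Sp7, Dlx5, Alpl and Msx2 stand high in single lines.

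Of the 8 genes, 5 varied widely between lines. After centring each set on its mean, the group means of Dlx5 spanned 3.14 log2 units over the 17 groups, those of Sox9 2.91, of Alpl 2.85, of Msx2 2.5 and of Sp7 2.06. These spans were larger than those of 96.6%, 96.1%, 95.8%, 94.4% and 92.1% of genes. Msx1 spanned 0.74, Acan 0.31 and Ibsp 0.23, more than 58.6%, 28.4% and 14.4% of genes.

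Sp7, the zinc-finger factor that osteoblast formation requires, was high in a few lines and low in most. The 3 UG26.1B6 arrays read 7.5, 7.77 and 7.14, the UG26.3B5 arrays 5.86, 6.51 and 6.71, and the BMC9 arrays 6.01, 7.18 and 6.42. All 9 arrays of AFT024, BFC012 and BMC10 lay between 5.38 and 5.66, below each of those 9. Over the pairs of lines in the first confluent set, 8.56% to 33.4% of all genes differed, and over those in the second 23.4% to 39.1%. In the order of Sp7 levels in the first confluent set, UG26.1B6 came first and exceeded BMC9 (adjusted p = 4.9e-04). BMC9 and UG26.3B5 did not differ beyond the shared spread (difference 0.18, SE 0.201, adjusted p = 0.562). UG26.3B5 exceeded BFC012 (adjusted p = 5.9e-04), and the last 3 lines did not differ (adjusted p = 0.908 and 0.981 for neighbours). In the second confluent set AM30-3F4 was highest with 7.44, 6.92 and 6.88, followed by AM14-1C4 with 6.44, 6.28 and 6.58, and their values did not overlap. The other 9 arrays of that set lay between 5.53 and 6.23. In the OP9 and sorted sets Sp7 arrays lay between 4.51 and 4.75 and between 4.59 and 5.42. Of the 17 group means only that of UG26.1B6 (7.47) was above the median gene of its set.

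Dlx5, a distal-less homeobox factor, had its highest level of each confluent set in the marrow lines BMC9 and 14F1-1 and the calvarial line OP9. BMC9 read 8.18, 7.5 and 7.8, whereas the 15 other arrays of its set lay between 5.69 and 6.18, so that no array of another line came near it. BMC9 exceeded the next line, UG26.1B6, by 1.79 (SE 0.128, adjusted p = 2.6e-13), and no neighbours further down differed (adjusted p from 0.624 to 0.969). OP9 read 7.91, 7.44 and 7.83 against 4.4, 4.9 and 4.68 in BFC. In the second confluent set 14F1-1 (7.27, 7.08, 7.27) and AM30-3F4 (7.06, 7.1, 6.88) were highest and did not differ from each other (0.2, SE 0.128, adjusted p = 0.29). AM30-3F4 exceeded the next line, 2012 (adjusted p = 5.4e-04), and the 9 arrays of 2012, AM14-1C4 and AFT011 lay between 6.2 and 6.57. The sorted arrays lay between 4.21 and 4.78. Only the Dlx5 means of BMC9 and OP9 were above the median gene of their set. Dlx6, the neighbour of Dlx5 on chromosome 6, was also higher in BMC9 than in BMC10 (0.73, SE 0.0769, adjusted p = 6.2e-09) and in OP9 than in BFC (0.46, SE 0.0769, adjusted p = 8.0e-06).

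Alpl was highest in the UG26 lines. UG26.1B6 read 8.44, 9.85 and 9.49, and UG26.3B5 read 6.73, 8.21 and 8.12. BMC9 came next with 6.98, 8.01 and 7.3, and the 9 arrays of AFT024, BFC012 and BMC10 lay between 6.34 and 6.94. The replicates of the upper 3 lines were uneven: the SD of Alpl was 0.729 in UG26.1B6, 0.832 in UG26.3B5 and 0.527 in BMC9, above that of 99.8%, 99.9% and 98.7% of genes in the same line. Array 1 was the lowest in each of the 3. UG26.1B6 exceeded UG26.3B5, while no other neighbours in the order differed (adjusted p from 0.0952 to 0.96). OP9 read 5.97, 5.58 and 5.83, above all 3 BFC arrays at 4.67, 4.65 and 4.75. In the second confluent set the arrays lay between 6.94 and 7.81. No neighbours in its order passed (adjusted p from 0.446 to 0.999), but the highest line, AM14-1C4 (7.81, 7.66, 7.7), exceeded the lowest, AFT011 (6.99, 7.1, 6.94), by 0.71 (SE 0.267, adjusted p = 0.0353). The sorted arrays lay between 5.09 and 5.69.

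**Figure D2:**
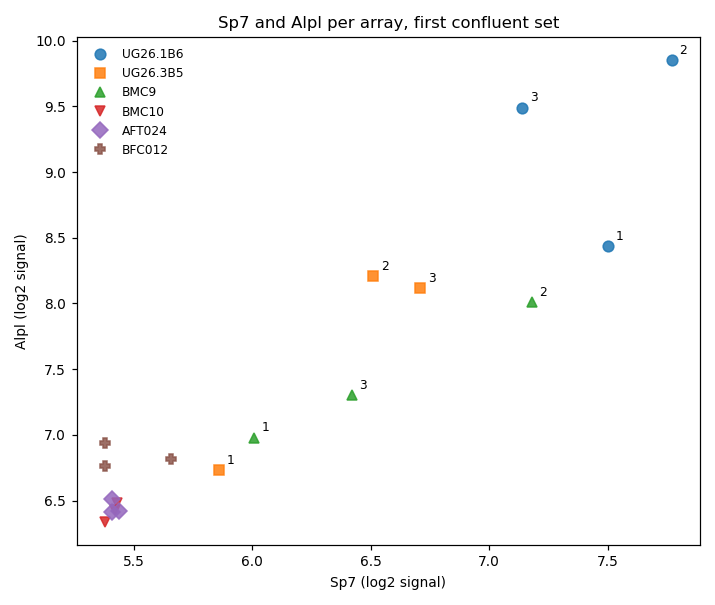
Log2 signal of Sp7 (x) against Alpl (y) in the 18 arrays of the first confluent set, 1 point per array, coloured by line, with replicate numbers at UG26.1B6, UG26.3B5 and BMC9. The 9 arrays of AFT024, BFC012 and BMC10 sit together, none above 5.66 in Sp7 or 6.94 in Alpl. The arrays of the other 3 lines extend to the right and, except array 1 of UG26.3B5 (6.73 in Alpl), up.

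In the first confluent set Sp7 and Alpl had their highest means in the same 3 lines. The separation was less clean for Alpl. BMC9 did not pass against BFC012 (0.59, adjusted p = 0.0952), and UG26.3B5 array 1 (6.73) lay below all BFC012 arrays. Elsewhere Sp7 and Alpl parted. Alpl but not Sp7 was higher in OP9 than in BFC. Sp7 but not Alpl was lower in AM14-1C4 than in AM30-3F4 (Alpl 0.19, SE 0.267, adjusted p = 0.725). Over the 17 centred group means their Pearson correlation was 0.85, and over the 13 confluent groups 0.86. These points share lines and normalization sets, and the value is a description. By the rule for likeness (genes spanning at least 2 log2 units, 1614 candidates), the genes most like Sp7 were Alpl, Sorcs2 (0.84) and Alkal1 (0.79), and those most like Alpl were Wdr60 (0.89), Zdbf2 (0.85) and Sp7. Dlx5 was most like Cebpa (0.92), an adipocyte and myeloid transcription factor, Rgs4 (0.9) and Fas (0.84).

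Msx2, a homeobox factor of skull and limb development, ordered the lines differently. BMC10 was highest in its set with 8.45, 8.42 and 8.41, above UG26.1B6 (8.05, 7.91, 7.97) and UG26.3B5 (7.92, 7.8, 7.9). BMC9 followed with 7.23, 7.75 and 7.71, AFT024 with 6.76, 6.74 and 6.77 and BFC012 with 6.29, 6.42 and 6.68. BMC10 exceeded UG26.1B6 (adjusted p = 0.00283), UG26.3B5 exceeded BMC9 (adjusted p = 0.0371) and BMC9 exceeded AFT024 (adjusted p = 8.0e-07). The UG26 lines did not differ from each other beyond the shared spread (adjusted p = 0.662). AFT024 lay above BFC012 by 0.29 (SE 0.114) without overlap, just short of the threshold (adjusted p = 0.0505, over 13 alternatives from 0.0119 to 0.261). It passed with the filter on dim genes (adjusted p = 0.0346) and without the third BFC012 array (0.4, adjusted p = 0.0119). In the second confluent set 14F1-1 read 9.22, 8.99 and 9.11, AM30-3F4 7.99, 7.93 and 8.04 and AM14-1C4 7.53, 7.53 and 7.44. Lines 2012 (7.14, 6.97, 6.78) and AFT011 (6.82, 6.81, 6.45) were lowest. Each of the first 3 exceeded its next neighbour (adjusted p = 6.2e-10, 8.7e-04 and 2.2e-04), and 2012 and AFT011, which overlapped, did not pass (adjusted p = 0.081, over 13 alternatives from 0.0308 to 0.478). Msx2 stayed below the median gene in OP9 and BFC (arrays from 4.27 to 4.57) and in the sorted groups (4.45 to 5.02). The genes most like it were Nbl1 (r = 0.86 over the 17 centred group means), a secreted BMP antagonist, Hmgcll1 (0.85) and Csgalnact1 (0.82), an enzyme of chondroitin sulfate synthesis.

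Msx1, the paralog of Msx2, varied less between lines than Msx2. AFT024 was highest in the first confluent set with 7.96, 7.91 and 8.27 and exceeded UG26.1B6 (7.68, 7.68, 7.7) with adjusted p = 0.00161. The other lines of that set lay between 7.23 and 7.71, and their neighbours did not differ (adjusted p from 0.183 to 0.87). AM30-3F4 read 7.84, 7.61 and 7.61 and exceeded 14F1-1 (adjusted p = 5.2e-05), below which no neighbours differed beyond the shared spread (adjusted p from 0.647 to 0.985). Msx1 arrays lay between 5.01 and 5.28 in the OP9 set and between 5.42 and 5.84 in the sorted set.

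Ibsp, the bone sialoprotein of mineralized matrix, stayed low in every set. Its arrays lay between 4.4 and 4.76 in the first confluent set, 5.09 and 5.45 in the second, 2.89 and 3.2 in the OP9 set and 3.06 and 3.59 in the sorted set. All 17 group means were below the lower quartile of genes in their set (5.74, 6.01, 4.09 and 4.65). Of all pairs of lines in a set, 2 passed for Ibsp, both in the first confluent set and by small differences: UG26.1B6 exceeded AFT024 by 0.19 (SE 0.073, adjusted p = 0.0479) and BMC10 exceeded it by 0.21 (SE 0.073, adjusted p = 0.027). Its neighbours on chromosome 5 (Dspp, Dmp1, Mepe), which code for other mineralized-matrix proteins of the same cluster, passed the threshold once: Dspp was lower in OP9 than in BFC by 0.3 (SE 0.0876, adjusted p = 0.00667).

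Sox9, the chondrocyte regulator, was above the median gene in every group. In the first confluent set BMC9 read 10.72, 9.84 and 10.11, AFT024 10.16, 9.34 and 10.5 and BMC10 9.57, 9.28 and 9.97, and these 3 overlapped. BFC012 read 8.93, 8.79 and 9.22 and the 6 UG26 arrays lay between 8.39 and 9.07. BMC10 exceeded BFC012 (adjusted p = 0.0158) and no other neighbours differed (adjusted p from 0.17 to 0.959). In the second confluent set the order was AM14-1C4 (10.78, 10.83, 10.94), 14F1-1 (9.79, 9.71, 9.67), 2012 (8.89, 8.86, 8.82), AM30-3F4 (8.06, 7.93, 7.99) and AFT011 (7.99, 7.95, 7.86). Each of the first 3 exceeded its next neighbour (adjusted p = 1.8e-05, 6.5e-04 and 9.2e-04), and the last 2 did not differ (adjusted p = 0.885). The genes most like Sox9 over the 17 centred group means were Ifit3 (0.9), Lpin1 (0.87) and Ltbp2 (0.85).

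Acan, a target of Sox9 in cartilage, did not follow it. Its arrays lay between 5.38 and 5.78 in the first confluent set and between 5.57 and 6.17 in the second, between 4.26 and 4.57 for OP9 and BFC and between 4.32 and 4.72 in the sorted set. Every group mean was below its set's median gene, and Acan passed the threshold between no 2 groups of a set. The lowest adjusted p was 0.0535, for a difference of -0.31 (SE 0.0892) between BFC012 without and AFT024 with KLS cells. Without the second AFT011 array Acan passed in the second FL pair (0.28, adjusted p = 0.0381).

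**Figure D3:**
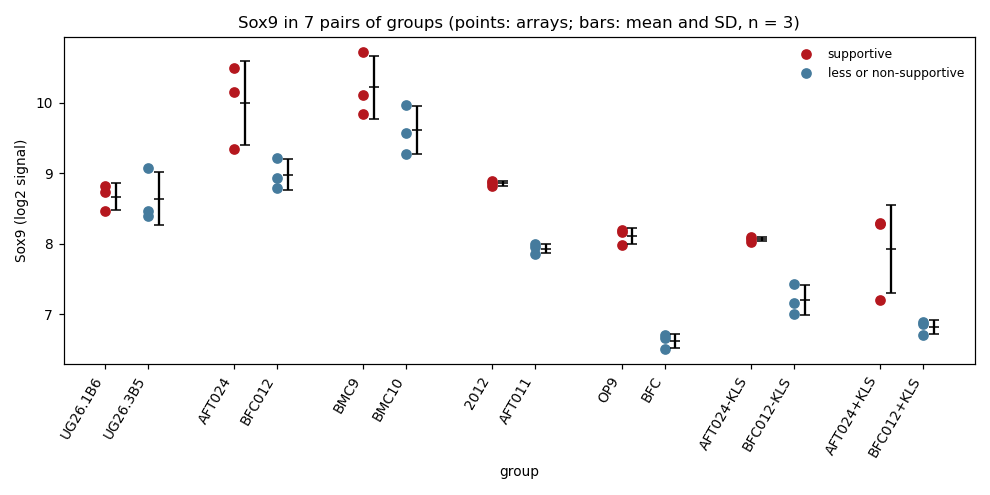
Sox9 log2 signal per array (points) with mean and SD (n = 3) in 7 pairs of groups, the supportive line in red and the less or non-supportive line in blue. The mean of the supportive line is higher in the 7 pairs, by 0.03 in the UG26 lines to 1.49 in OP9 against BFC, and the arrays overlap in the UG26 and BMC pairs. The confluent pair and both sorted pairs of AFT024 and BFC012 are the same clones. In limma's fit the UG26 pair and the sorted pair without KLS cells did not pass (adjusted p = 0.959 and 0.0541). Pairs from different normalization sets are not on 1 scale.

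The first question of the design is how supportive lines differ from less or non-supportive lines of the same origin. Sox9 was higher in the supportive line in the FL pair, AFT024 over BFC012, by 1.02 (SE 0.202, 2.03-fold, adjusted p = 1.3e-04), and its arrays did not overlap. It was higher in the second FL pair, 2012 over AFT011, by 0.92 (SE 0.202, 1.9-fold, adjusted p = 5.9e-04). In the AGM pair the Sox9 difference was 0.03 and the arrays overlapped. The difference of the FL pair exceeded that of the AGM pair by 1 log2 unit in a test of the difference itself (SE 0.285, adjusted p = 0.00845), which 24% of all genes passed.

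In the AGM pair 2 of 8 genes passed, against 8.56% of all genes. Sp7 was higher in UG26.1B6 by 1.11 (SE 0.201, 2.16-fold, adjusted p = 2.1e-04) and Alpl by 1.58 (SE 0.267, 2.98-fold, adjusted p = 8.1e-05). Neither gene's arrays overlapped. Same-numbered arrays of the UG26 lines deviated together over all genes, and between them the Alpl difference was even (1.72, 1.64 and 1.37) where that of Sp7 was not (1.64, 1.26 and 0.43). In a fit to only these arrays with the replicate number as a block, both kept passing (adjusted p = 1.1e-05 for Alpl and 0.00621 for Sp7). In a fit to only these 6 arrays without the block, Alpl did not pass (adjusted p = 0.123; over its 13 alternatives from 9.9e-07 to 0.123).

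In the FL pair 2 of 8 passed, against 28.5% of all genes: Sox9, and Msx1 by 0.74 (SE 0.0883, 1.67-fold, adjusted p = 2.5e-08), higher in AFT024. Alpl was lower in AFT024 without overlap but did not pass (-0.39, SE 0.267, adjusted p = 0.334, over 13 alternatives from 0.0143 to 0.512). It passed in a fit to only the arrays compared (adjusted p = 0.0143) and in that fit with the replicate block (0.0271). BFC012 had the higher mean of mesothelial and epithelial markers. Their log2 level over the 9 genes was 8.08 to 8.35 per array against 6.86 to 6.99 in AFT024, with 6 against 2 above the median gene. Of the 9 markers, 5 were called lower and 2 higher in AFT024. In the second FL pair Sox9 alone passed, 1 of 8 against 27.6% of all genes. There the same markers stood at 8.79 to 8.81 in AFT011 and 6.9 to 7.19 in 2012 (6 against 3 above the median gene). Of these markers 5 were called lower and 1 higher in 2012. Their part in the Sox9 differences was not tested, and in such bulk samples fewer cells of a type and less RNA per cell cannot be told apart. Without the third 2012 array Msx2 passed too (0.36, adjusted p = 0.0308), and without the second AFT011 array Msx2 and Acan did (0.33 and 0.28, adjusted p = 0.0496 and 0.0381).

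In the BM pair 6 of 8 genes passed, against 15.5% of all genes. Dlx5 differed most, higher in BMC9 by 1.9 (SE 0.128, 3.72-fold, adjusted p = 1.5e-13). Sp7 was higher by 1.13 (SE 0.201, adjusted p = 8.3e-05) and Alpl by 1.02 (SE 0.267, adjusted p = 0.00669), both without overlap. Msx2 was lower in BMC9, at -0.86 (SE 0.114, adjusted p = 5.6e-07), again without overlap. The 2 smaller differences were those of Sox9 (0.61, SE 0.202, adjusted p = 0.0334, arrays overlapping) and Msx1 (0.29, SE 0.0883, adjusted p = 0.0213). Same-numbered BMC arrays deviated together as well, and with the replicate block 4 genes passed: Msx1 (adjusted p = 0.066, over 13 alternatives from 0.0146 to 0.145) and Sox9 (0.0654, from 0.00903 to 0.295) did not. Alpl did not pass without the second BMC9 array (0.73, adjusted p = 0.0839, over 13 alternatives from 0.00239 to 0.0839). Between same-numbered arrays the Sp7 difference was 0.58, 1.76 and 1.04 and the Alpl difference 0.5, 1.58 and 0.97, so that pair 1 was lowest and pair 2 highest for both. Adipocyte markers moved with the pair: their mean over 8 genes was 7.92 to 8.08 per array in BMC9 and 7.06 to 7.31 in BMC10, with 4 against 2 above the median gene. Their part in the result was not tested.

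OP9 against BFC, lines of different tissue and strain, had 3 of 8 genes passing, against 34.4% of all genes. Dlx5 was higher in OP9 by 3.07 (SE 0.128, 8.39-fold, adjusted p = 9.8e-20), Sox9 by 1.49 (SE 0.202, 2.81-fold, adjusted p = 2.1e-07; 8.2, 8.17 and 7.98 against 6.51, 6.66 and 6.7) and Alpl by 1.1 (SE 0.267, 2.15-fold, adjusted p = 0.00114). Sp7, Msx1 and Msx2 differed by less than 0.1 and overlapped. Origin, strain, culture temperature (for 2 of the 3 OP9 arrays) and support cannot be told apart in this comparison. Adipocyte markers were at 8.03 to 8.09 per array in OP9, with 7 of 8 above the median gene, and at 4.63 to 4.75 in BFC, with 3 of 8, while mesothelial markers were at 4.71 to 4.79 and 5.54 to 5.61. Their part was not tested.

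**Figure D4:**
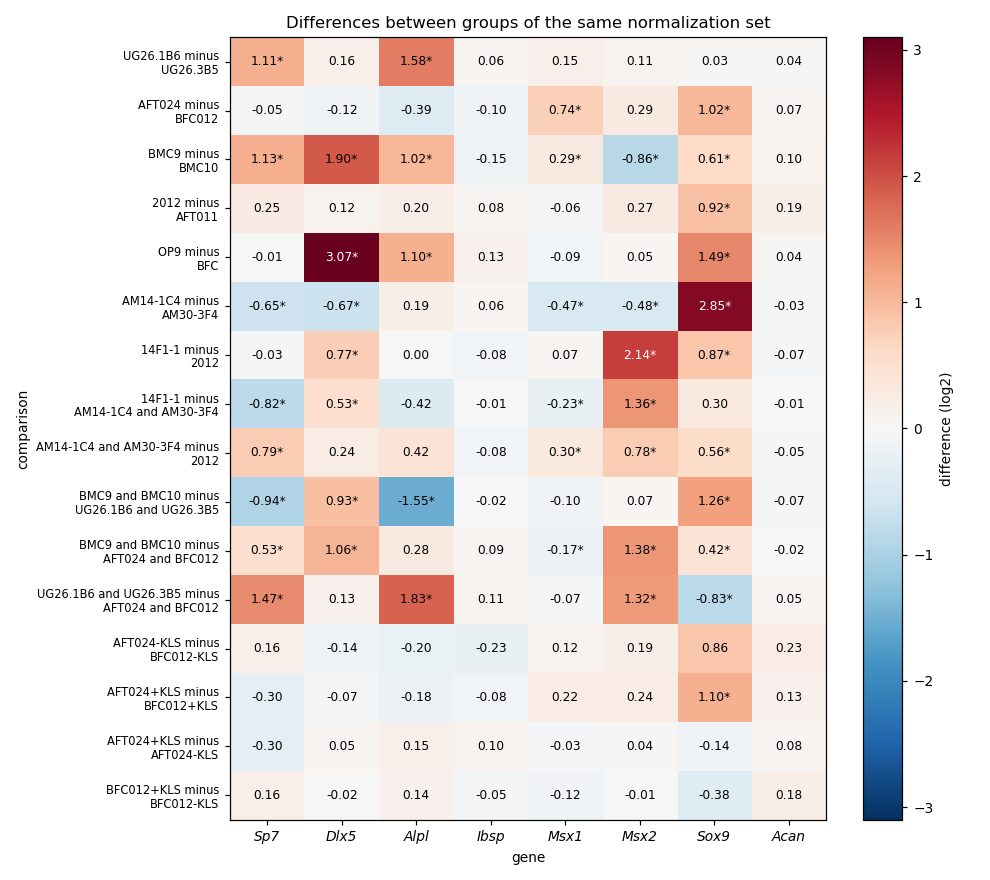
Log2 differences of the 8 measured genes (columns) in 16 comparisons (rows), coloured by size and direction, with an asterisk where the adjusted p was under 0.05. Ibsp and Acan carry no asterisk, and Dlx5 in OP9 against BFC has the largest value at 3.07. Sox9 is higher with an asterisk in 5 of the pairs of supportive against other lines. Among these, AFT024 against BFC012 counts both as confluent and as sorted cells with KLS cells.

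The second question is how supportive lines of different origin differ. The 2 supportive AM lines, of the same tissue, strain and age, differed in 5 of 8 genes, against 31.6% of all genes. Sox9 was higher in AM14-1C4 by 2.85 (SE 0.202, 7.23-fold, adjusted p = 1.3e-13). Sp7 (-0.65), Dlx5 (-0.67), Msx1 (-0.47) and Msx2 (-0.48) were lower in it (adjusted p = 0.0113, 6.2e-05, 5.2e-05 and 8.7e-04). Sp7 did not pass without the second AM14-1C4 array (adjusted p = 0.0596) or the first AM30-3F4 array (0.121), over 12 alternatives from 0.0018 to 0.121. These genes differed between 2 clones that the labels describe in the same words.

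The marrow line 14F1-1 differed from the FL line 2012 in 3 of 8 genes, against 36.6% of all genes, and was the higher in each: Msx2 by 2.14 (SE 0.114, 4.42-fold, adjusted p = 5.2e-17), Sox9 by 0.87 and Dlx5 by 0.77 (adjusted p = 6.5e-04 and 6.6e-06). Against the mean of the AM lines, 4 of 8 passed (39% of all genes), Msx2 (1.36) and Dlx5 (0.53) higher and Sp7 (-0.82) and Msx1 (-0.23) lower. Dlx5 did not pass against AM30-3F4 alone (adjusted p = 0.29), nor Msx1 against AM14-1C4 alone (0.01, adjusted p = 0.982). Without the third 14F1-1 array Msx1 was lost (-0.18, adjusted p = 0.131, over 16 alternatives from 0.00848 to 0.131). Alpl did not pass, but did in a fit to only the arrays compared (-0.42, adjusted p = 8.1e-05, over 16 alternatives from 9.6e-06 to 0.339). Sox9 did not pass either (0.3, adjusted p = 0.2), but did in that fit (adjusted p = 1.5e-04, over 16 alternatives from 1.5e-04 to 0.385). The mean hides opposite Sox9 differences: 14F1-1 was below AM14-1C4 (-1.13, adjusted p = 1.8e-05) and above AM30-3F4 (1.73, adjusted p = 1.1e-08). The 14F1-1 cultures were the only ones of this set at 37 °C and from adult marrow, so line, tissue, age, strain and temperature cannot be told apart. Adipocyte markers stood at 8.27 to 8.29 per array in 14F1-1, 6.98 to 7.19 in 2012 and 7.68 to 7.82 in the AM lines, and their part was not tested. The AM lines differed from 2012 in 4 of 8 (31.5% of all genes), and were the higher in Sp7 by 0.79, Msx2 by 0.78, Sox9 by 0.56 and Msx1 by 0.3 (adjusted p from 6.7e-08 to 0.011). In a fit to only the arrays compared Alpl passed too (0.42, adjusted p = 0.0102, over 16 alternatives from 0.0014 to 0.454), as did Dlx5 (0.24, adjusted p = 0.0178, over 15 alternatives from 0.0178 to 0.345). In Sox9 the AM lines lay on either side of 2012, AM14-1C4 above and AM30-3F4 below. AM14-1C4 by itself did not pass against 2012 in Sp7 (adjusted p = 0.0754) or Msx1 (adjusted p = 0.704). The AM lines and 2012 also differ in tissue, strain and embryonic day, which cannot be told apart here.

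In the first confluent set the lines were also compared by tissue, each tissue being represented by the mean of 2 clones, and these comparisons share arrays. Tissue, strain and age go together in them and cannot be told apart. Markers of other cell types moved as well: against the FL lines, 5 of 9 mesothelial markers were lower and 1 higher in the UG26 lines and 6 lower in the BMC lines, and 4 and 3 of 8 adipocyte markers were higher. Between the BMC and UG26 lines 2 of 9 mesothelial markers were lower and 2 of 8 adipocyte markers moved each way. Their part in the results was not tested. The UG26 lines exceeded the FL lines in Alpl by 1.83 (SE 0.189, 3.56-fold, adjusted p = 7.2e-10), Sp7 by 1.47 (SE 0.142, adjusted p = 1.8e-10) and Msx2 by 1.32 (SE 0.0806, adjusted p = 1.9e-15), and were lower in Sox9, at -0.83 (SE 0.143, adjusted p = 1.1e-05). That made 4 of 8 genes, against 37.8% of all genes. Against BFC012 alone, neither UG26.1B6 nor UG26.3B5 passed in Sox9 (adjusted p = 0.285 and 0.235). The BMC lines differed from the UG26 lines in 4 of 8 (33.6% of all genes), with Sox9 (1.26) and Dlx5 (0.93) higher and Alpl (-1.55) and Sp7 (-0.94) lower. In Dlx5 BMC10 did not pass against either UG26 line (adjusted p = 0.657 and 0.821). BMC9 did not pass against UG26.3B5 in Alpl or Sp7 (adjusted p = 0.522 and 0.562). The BMC lines differed from the FL lines in 5 of 8 (33.5% of all genes). Msx2 (1.38), Dlx5 (1.06), Sp7 (0.53) and Sox9 (0.42) were higher and Msx1 (-0.17) lower. In both Dlx5 and Sp7 BMC10 did not differ beyond the spread from the FL line next to it (adjusted p = 0.861 and 0.981), while BMC9 stood above all 6 FL arrays. Neither BMC9 nor BMC10 passed against AFT024 in Sox9 (adjusted p = 0.456 and 0.17). For Msx1, BMC9 was lower than AFT024 (adjusted p = 7.2e-04) but higher than BFC012 (adjusted p = 0.00204). In a fit to only the arrays compared, Sox9 and Msx1 of the last comparison did not pass (adjusted p = 0.159 and 0.115, over 19 alternatives from 0.0019 to 0.159 and 0.0159 to 0.192), nor did they without the second BFC012 array (0.0569 and 0.0829).

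The third question is whether contact with KLS cells changed the FL stroma. AFT024 sorted after 4 days with KLS cells and without them differed in 0 of 8 genes in limma's fit (1 at an unadjusted p under 0.05), against 0.351% of all genes, and BFC012 in 0 of 8 (0 at an unadjusted p under 0.05), against 0.883%. The test of whether the lines responded differently gave 0 of 8 (1 at an unadjusted p under 0.05), against 0.0401% of all genes. Few genes of any kind passed in these comparisons, and a p above the threshold does not show equal levels. Sox9 read 8.06, 8.09 and 8.03 in AFT024 without KLS cells and 7.2, 8.29 and 8.28 with them, where the first array stands apart from the other 2. In BFC012 it read 7, 7.16 and 7.43 without and 6.86, 6.71 and 6.89 with KLS cells. Adipocyte markers stood at 5.99 to 6.08 per array in AFT024 without KLS cells and 6.62 to 7.39 with them, and fibroblastic markers ranged from 6.93 to 8.11 between the BFC012 arrays without KLS cells.

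Among the sorted cells the 3 Sox9 values of AFT024 lay above those of BFC012 in both cultures. With KLS cells it was higher in AFT024 by 1.1 (SE 0.24, 2.15-fold, adjusted p = 0.0128), the 1 of 8 genes that passed, against 11.6% of all genes. It did not pass without the AFT024 array 2 or 3 (0.0551 and 0.0548) or the BFC012 array 2 (0.0514), over 13 alternatives from 4.0e-05 to 0.0551. Without KLS cells 0 of 8 genes passed in limma's fit, against 7.32% of all genes, and 3 had an unadjusted p under 0.05. There the Sox9 difference was 0.86 (SE 0.24, 1.82-fold, adjusted p = 0.0541), with no overlap of the arrays. Same-numbered arrays of the sorted lines without KLS cells deviated together, and with the replicate block Sox9 passed (adjusted p = 0.00418, over 13 alternatives from 0.00418 to 0.147). Mesothelial markers were again higher in BFC012, at 6.29 to 6.38 against 5.4 to 5.49 per array without KLS cells, and their part was not tested. The sorted cultures are separate from the confluent ones of the same clones, so they repeat the comparison of these 2 clones, not of support in general.

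Other genes of the pathways were taken from 4 lists: 27 osteoblast regulators (26 measured), 25 osteoblast matrix and mineralization genes (21 measured), 16 chondrocyte regulators (15 measured) and 22 cartilage matrix genes (all measured). In the AGM pair, where 4.34% of all genes were higher and 4.22% lower, 4 of 26 osteoblast regulators were higher in UG26.1B6 and 1 lower, led by Zfp521 (0.97, adjusted p = 7.2e-08), a zinc-finger factor that restrains Runx2. Of the osteoblast matrix genes 5 of 21 were higher and 1 lower. Postn (periostin) was higher by 1.66, Mgp (matrix Gla protein, which inhibits calcification) by 1.39 and Cdh11 (osteoblast cadherin) by 1.16, whereas Phospho1, a phosphatase of mineralization, was lower at -1.2. Of the chondrocyte regulators 3 of 15 were higher, with Sox5 at 0.69, and 1 lower, and of the cartilage matrix 0 of 22 were higher and 1 lower. The medians over the 4 lists were 0.07, 0.19, 0.02 and 0.07, beside 0.03 over all genes.

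The BM pair, with 7.28% of all genes higher and 8.18% lower, had 9 of 26 osteoblast regulators higher in BMC9 and 1 lower, and 7 of 21 osteoblast matrix genes higher and 2 lower. Bmp4, a bone morphogenetic protein, was higher by 2.01 (SE 0.378, adjusted p = 1.7e-04) and Tnfrsf11b (osteoprotegerin, the decoy receptor that limits osteoclasts) by 0.98. Postn was higher by 1.47, Lox, which crosslinks collagen, by 1.1 and Col1a1 by 0.87, and Pdpn (podoplanin) was lower at -1.21. Of the chondrocyte genes, 1 of 15 regulators was higher (Hif1a, 0.73) and 1 lower (Sox5, -0.69), and 2 of 22 cartilage matrix genes were higher, Col2a1 by 0.34 and Matn3 by 0.28. List medians were 0.11, 0.22, 0.08 and 0.05, beside 0.03 over all genes.

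In both FL pairs Vdr, Col1a2 and Vcan were higher in the supportive line. In AFT024 against BFC012 the vitamin D receptor Vdr was higher by 2.42, Col1a2 by 2.91, the sulfotransferase Chst11 by 2.29 and the proteoglycan Vcan by 1.39, while Smpd3 was lower at -2.69 and Zfp521 at -1.83. The counts higher and lower, beside 15.6% and 12.9% of all genes, were 6 and 4 of 26 osteoblast regulators, 5 and 2 of 21 matrix genes, 3 and 2 of 15 chondrocyte regulators and 1 and 2 of 22 cartilage matrix genes. In 2012 against AFT011 Col1a2 was higher by 4.41, Postn by 4.16, Vdr by 2 and Vcan by 1.33, and Smpd3 was lower at -2.24. There, beside 13.4% and 14.1% of all genes, 14 and 3 of 26, 9 and 3 of 21, 5 and 0 of 15 and 4 and 1 of 22 were higher and lower, with medians of 0.3, 0.16, 0.23 and 0.15 beside 0.07 over all genes. In the first FL pair the medians were -0.09, 0.03, 0.02 and -0.01, beside -0.02.

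OP9, with 17.5% of all genes higher and 16.9% lower than in BFC, exceeded it in 12 of 26 osteoblast regulators (3 lower), 8 of 21 matrix genes (4 lower), 6 of 15 chondrocyte regulators (0 lower) and 7 of 22 cartilage matrix genes (0 lower). Mgp was higher by 4.19, Col1a2 by 3.26, Tnfrsf11b by 3.21, Vcan by 2.96 and Snai2 by 2.32, and Pdpn was lower at -2.48. Sox5, the partner of Sox9 in cartilage, was higher by 1.75, Foxc1 by 2.14, Papss2, which makes the sulfate donor for proteoglycans, by 2.08, Comp by 1.09 and Col2a1, the main cartilage collagen, by 0.7. List medians were 0.27, 0.22, 0.07 and 0.16, beside 0.01 over all genes. In the AM pair, in which Sox9 differed most, Sox5 was higher in AM14-1C4 by 2.28 (SE 0.143, adjusted p = 6.1e-15) and Col2a1 by 0.92, but Col10a1, a collagen of hypertrophic cartilage, was lower at -1.38, and 1 of 22 cartilage matrix genes was higher and 3 lower (15.9% and 15.8% of all genes). With KLS cells, Zbtb16 was higher in AFT024 (1.95, adjusted p = 0.0362), and Vdr (1.16, adjusted p = 0.0162) and Prg4 (lubricin, 2.15, adjusted p = 0.0227) in BFC012. No other gene of the 4 lists passed in either line.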

How the data were processed

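RNA was extracted with Trizol and hybridized to mouse Affymetrix gene arrays, per the labels' protocols. The deposited values are log2 signals per probe set, made by the authors; the submitters' processing notes name RMA and Partek. Their versions, settings and genome build are not given in the sources used here. Quantiles of the values show 4 separately normalized sets. Of 35556 probe sets, 21789 named 1 gene, 1621 several and 12146 none in the platform annotation; only the first were used, the probe set with the highest mean per gene.

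From these values, differences were computed with limma 3.58.1 in R 4.3.3 (lmFit, contrasts.fit, eBayes; two-sided; Benjamini-Hochberg over 19938 genes, threshold 0.05), after testing on simulated data. The fits had a mean per group and no block. Members and gene lists were chosen with earlier results of these data known. Named beside the members were, per list and comparison, up to 4 genes past the threshold with the largest difference, neighbours of members on the chromosome, and the 3 genes most correlated with a member over the 17 centred group means.

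The labels do not say that replicates came from separate cultures, so p-values measure the spread between arrays, which may be technical; 3 arrays per group limit the precision. Arrays of a group correlated at 0.975 or more, and 0 pairs of arrays were identical. Same-numbered arrays were taken as paired where the correlation of their deviations was over 0.1 for all 3 numbers: the AGM pair (0.535, 0.327, 0.468), the BM pair (0.323, 0.116, 0.435) and the sorted FL pair without KLS cells (0.671, 0.517, 0.466). This pairing comes from the data, not from the labels. AFT024 and BMC9 (0.528, 0.367, 0.433) also met the rule. They are compared as single lines in the orders of levels and beside the comparisons by tissue. Between these lines the block, tried after the data were seen, changed no call of the 8 genes. Both lines also enter BMC against FL lines, where Msx1 did not pass with the block (adjusted p = 0.0834). Alternatives were a fit to only the arrays compared, the replicate block, joint quantile normalization, equal array medians, a filter on dim genes, the mean of probe sets, a trended robust prior, and leaving out each array. The difference between pairs was tested after the pairs' values were known. Promoter sequences are RefSeq's.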

Additional observations from a re-analysis of the deposited data

Results flagged for a closer look

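The difference between lines of a pair was itself compared between the AGM, FL and BM pairs, in the same limma fit with Benjamini-Hochberg adjustment over all genes; 24%, 12.6% and 25.5% of genes passed for AGM minus FL, AGM minus BM and FL minus BM. Of the 8 measured genes, 4, 2 and 5 passed. Between the AGM and FL pairs the difference was larger by 1.16 for Sp7 and by 1.97 for Alpl, and smaller, at -0.59, for Msx1 and, at -1, for Sox9. Between the AGM and BM pairs it was -1.73 for Dlx5 and 0.97 for Msx2. Between the FL and BM pairs it was -1.18 for Sp7, -2.02 for Dlx5, -1.41 for Alpl, 0.45 for Msx1 and 1.16 for Msx2. Sp7 did not differ beyond the spread between the AGM and BM pairs (-0.02, SE 0.285, adjusted p = 0.988). Each pair is 2 clones, so tissue and clone cannot be told apart. Groups of 3 arrays were too small for a test of single arrays that stand apart.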

How the results depend on the processing

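Of 251 recomputed counts of members passing, 237 stayed within 1.5 times the reported count. Of 1944 recomputed single differences 1818 kept direction and side of the threshold, and no called difference changed sign. Many of these could not change sign. The fit to only the arrays compared, the block, the filter, the prior and the mean of probe sets (1 per gene) leave the difference itself as it was. There only the adjusted p could move. In the fit to only the arrays compared the count was 1 for the AGM pair, 3 for BMC against FL lines and 1 for the sorted FL pair without KLS cells. For that sorted pair it was also 1 with the replicate block, with equal array medians and with the filter on dim genes. The filter left 3 for the AM pair and 2 for 14F1-1 against the AM lines, because Sp7 and Dlx5 lay below the limit and were not tested. Leaving out 1 array gave 1 to 3 for the second FL pair, 3 to 5 for BMC against FL lines and 0 to 1 for the sorted FL pair with KLS cells. For the other comparisons it gave 2 (AGM), 2 to 3 (FL), 4 to 6 (BM), 3 (OP9), 4 to 5 (AM), 3 and 3 to 4 (14F1-1 against 2012 and the AM lines), 4 (AM against 2012), 4 (BMC against UG26), 4 to 5 (UG26 against FL) and 0 (sorted without KLS cells, and the 3 KLS comparisons).

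With the replicate block, counts over all genes were 2217 against 1707 for the AGM pair, 2115 against 3082 for the BM pair and 3152 against 1459 for the sorted FL pair without KLS cells. The cause of these changes was not tested.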
